A study of Mus musculus with 18 samples.

Results

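The genes described here are 7 regulators of the germline and of pluripotent cells: Dazl, Dnd1, Nanos3, Dppa2, Dppa4, Dppa3 and Dppa5a. They were chosen by symbol, as 7 of the 31053 mouse genes in the files, and all 7 had counts. Levels were read in raw UMIs (unique molecular identifiers, each standing for 1 captured transcript) over barcodes with at least 1500 mouse UMIs, by genotype and by cell class. All 7 passed the filter on low counts, among 18658 genes tested.

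Single embryos of the strain 129S4/SvJae were collected at E8.5, dissociated whole and profiled with 10x Genomics 3' v3 chemistry, each library being labelled as 1 embryo. Embryos lacking Dnmt1, Dnmt3a or Dnmt3b (homozygous null, written KO as in the sample names) and wild types (WT) came from matings of heterozygous mice, so by its label each null embryo lacked the enzyme in every tissue. Libraries numbered 3 for Dnmt1 KO, 4 each for Dnmt3a KO and Dnmt3b KO, and 7 for WT. The labels give neither litter nor sex, and p-values measure the spread between embryos.

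DNMT1 copies DNA methylation onto new strands, and DNMT3A and DNMT3B set it on unmethylated DNA. Promoters of many germline genes are methylated in somatic cells. Primordial germ cells are set aside from the epiblast under PRDM1, PRDM14 and TFAP2C, keep Pou5f1 and Nanog, and lie near the hindgut at this stage. DAZL binds RNA and promotes translation in germ cells, DND1 and NANOS3 are RNA-binding proteins needed for primordial germ cells to survive, DPPA2 and DPPA4 act as a pair on chromatin in pluripotent cells, DPPA3 (STELLA) is a maternal and germ cell protein that limits maintenance methylation through UHRF1, and DPPA5A is an RNA-binding protein of pluripotent cells. A transcript of these genes can therefore come from a germ cell or from any other cell, and the data were split to keep these apart.

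Promoters of Dazl and Nanos3, the 2 of the 7 genes for which a promoter window was available, are shown as RefSeq gives them on build GRCm38.p6, from 250 bases before to 50 bases after the annotated start, 5′ to 3′, with each CpG in capitals. The other 5 genes, Dppa2, Dppa3, Dppa4, Dppa5a and Dnd1, had no such window and are not shown, so a link between CpG content and response was not tested. Dazl lies on the minus strand with its promoter window at chr17:50293571-50293870, and the Nanos3 window is chr8:84176503-84176802, also on the minus strand. The GENCODE gene used for the Nanos3 counts reaches further upstream, to position 84185217, so this RefSeq start lies inside it.
Dazl: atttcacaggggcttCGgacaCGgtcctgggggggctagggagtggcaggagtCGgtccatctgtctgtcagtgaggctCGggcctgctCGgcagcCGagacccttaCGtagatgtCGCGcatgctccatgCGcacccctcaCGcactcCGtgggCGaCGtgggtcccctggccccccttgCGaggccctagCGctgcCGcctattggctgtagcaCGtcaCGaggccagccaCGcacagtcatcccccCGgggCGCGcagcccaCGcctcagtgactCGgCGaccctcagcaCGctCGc
Nanos3: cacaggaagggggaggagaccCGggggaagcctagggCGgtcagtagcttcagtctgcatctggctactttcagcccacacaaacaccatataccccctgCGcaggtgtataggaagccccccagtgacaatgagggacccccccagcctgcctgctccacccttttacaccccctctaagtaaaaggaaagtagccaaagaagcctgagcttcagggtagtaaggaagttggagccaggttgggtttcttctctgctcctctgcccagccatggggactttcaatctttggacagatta
The Dazl window held 28 CpGs, an observed to expected CpG ratio of 0.795 and 68.7% G and C, and 14.2% of the 32851 promoter windows in the table held as many. The Nanos3 window held 3 CpGs, a ratio of 0.131 and 55.3% G and C, against a median of 7 CpGs over all windows. Of the letters searched on both strands, CACGTG and GCGGGA were in neither window (they were in 7.15% and 19.97% of all windows), and CCAAT was in the Dazl window once and in the Nanos3 window not at all (37.4% of all windows). In mm10, the build of the files, Dppa2 (chr16:48303908-48319723) and Dppa4 (chr16:48283733-48294237) are neighbours, 9671 bp apart on the same strand. Dppa3 lies at chr6:122626410-122630272 and Dppa5a at chr9:78367052-78368177. Processed copies of Dppa3 and Dppa5a exist in the mouse genome, and how reads were shared with them was not examined.

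The files held 162336 barcodes, of which 109962 were kept as single cells, with 36516346 to 234638944 UMIs and a median of 4463.5 to 59714 UMIs per cell across libraries. Dnmt3b KO 1 and Dnmt3b KO 2 shared 9149 barcodes, 80.4% and 83.1% of theirs, while no other pair shared more than 43. Profiles of the same barcode in the 2 libraries had a median correlation of 0.391, against -0.00716 for different barcodes, so the 2 may come from 1 embryo, and they were summed into 1 sample, giving 17 samples. In counts per 1000000 UMIs (CPM), Dnmt1 was 15.1 ± 0.515 (SD, n = 3) in Dnmt1 KO against 103 ± 10.7 (n = 7) in WT, and Dnmt3a was 9.35 ± 1.86 (n = 4) in Dnmt3a KO against 29.9 ± 3.92. Dnmt3b was 62.9 ± 5.44 (n = 3) in Dnmt3b KO against 61.1 ± 16.8, and a 3' tag outside a deleted part does not check that label. Dnmt3a was 31.99 CPM in Dnmt3b KO 1 and 2 summed, near WT, but lower in 11 (15.1) and 12 (7.56). Dnmt3b KO 12 lay inside the Dnmt3a KO range of 7.36 to 11.7 CPM. Whether that embryo lacked Dnmt3b alone cannot be read from these data. The main Dnmt3b KO calls outside the gate are therefore also given from libraries 1 and 2 alone. The Y-linked gene Ddx3y was at 30.8 to 41.1 CPM in WT 2 and in all null samples but Dnmt3b KO 12, and at most at 0.0532 CPM in the other 6 WT embryos and Dnmt3b KO 12, so most comparisons with WT also set embryos with a Y chromosome against embryos without one. Dnmt3b KO 12 was counted with Cell Ranger 5.0.0 and the other 17 libraries with 3.1.0.

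To set germ cells apart, a gate was placed on genes outside the list. A cell was gated if it held Pou5f1 and at least 2 of Prdm14, Nanog, Prdm1 and Tfap2c, each with 1 UMI or more. The gate took 551 of the kept cells, 218 in Dnmt1 KO, 253 in WT, 47 in Dnmt3b KO and 33 in Dnmt3a KO, and left 109411 outside. It did not isolate germ cells. Of the WT gated cells, 137 fell in the surface ectoderm class and 10 in a cluster led by Pou5f1 (called Pou5f1-led below), whereas 175 of the 218 gated Dnmt1 KO cells were Pou5f1-led. Gated cells are therefore named by their gate and their class, and not as germ cells.

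Within WT, Dppa3 and Dnd1 were higher inside the gate than outside in each of the 5 embryos compared, and Dazl was not. In the 5 WT embryos with at least 3 gated cells, Dppa3 was 11.5 ± 13.4 CPM inside the gate and 0.395 ± 0.174 outside (SD, n = 5), a difference of 2.67 on the log2(CPM + 1) scale, higher inside in 5 of 5 embryos. Dnd1 was 7.75 ± 6.59 CPM inside and 0.934 ± 0.152 outside, a difference of 1.83, again in 5 of 5. An exact two-sided sign-flip permutation test gave p = 0.0625 for each (adjusted over the 7 genes 0.109), and 0.0625 is the smallest p that 5 embryos allow. Nanos3 was 0.695 ± 1.27 CPM inside and 0.0780 ± 0.0191 outside and higher inside in 3 of 5 embryos (exact p = 0.312, adjusted 0.365). Dazl and Dppa4 had 0 UMIs in the gated cells of these embryos. With doublets put back, 7 embryos could be compared, and both Dppa3 and Dnd1 were higher inside in 7 of 7 (exact p = 0.0156, the smallest possible, adjusted 0.0273), a setting chosen after the data were seen. With a wider gate in the same 7 embryos (Prdm14 or Nanog, or Pou5f1 with Prdm1 or Tfap2c), Dppa3 was higher inside in 7 of 7 (exact p = 0.0156, adjusted 0.109) and Dnd1 in 6 of 7 (exact p = 0.0781, adjusted 0.137).

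The Pou5f1-led gated cells of WT carried most of this signal. These 10 cells, from 4 embryos, summed to 561 CPM of Dppa3, 238 of Dnd1, 45.5 of Nanos3 and 38.2 of Dppa5a, and to 0 UMIs of Dazl, Dppa2 and Dppa4, which allows up to 5.46 CPM of each. WT 7 gave 6 of the 10 cells, and the other 4 summed to 342 CPM of Dppa3 (53 UMIs), 123 of Dnd1 (19 UMIs), 12.9 of Nanos3 (2 UMIs) and 6.46 of Dppa5a (1 UMI). The 137 gated surface ectoderm cells of WT held 4.17 CPM of Dppa3, 1.91 of Dnd1 and 0 UMIs of Dazl. Surface ectoderm outside the gate held 2.90 to 13.6 CPM of Dppa3 across WT embryos, so the gated cells of that class were not above the rest. Levels inside and outside the gate therefore also compare different classes of cells. In Dnmt1 KO, the 175 Pou5f1-led gated cells held 12.6 CPM of Dppa3, 10.7 of Dnd1, 17.4 of Dazl, 19.97 of Dppa5a and 0.165 of Nanos3. The same gate and cluster thus held cells with a high Dppa3 and Dnd1 level in WT, and cells with Dazl and less of both in Dnmt1 KO. High levels were not particular to WT. The 4 such cells of Dnmt3a KO, from 1 library, held 770 CPM of Dppa3, 293 of Dnd1 and 0 UMIs of Dazl. The 3 of Dnmt3b KO, from 2 libraries, held 380 CPM of Dppa3, 120 of Dnd1 and 130 of Dazl (13 UMIs). Of these Dazl UMIs, 1 was in the 2 cells with at least 5 Dppa3 UMIs. Sums over few cells of few embryos were not tested.

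Dppa3 counts in single cells showed the same split. Among WT cells with at least 5 Dppa3 UMIs, 11 were gated, 9 of them Pou5f1-led, with a median of 22 and a maximum of 63 Dppa3 UMIs. WT 7 alone gave 8 of these 11 cells. Dnd1 was found in 10 of the 11, Nanos3 in 7 and Dazl in 0. Another 14 such WT cells lay outside the gate, 10 of them surface ectoderm, with Dnd1 in 3 and Nanos3 in 1. A further 12 were removed by the doublet caller, with a median of 11.5 Dppa3 UMIs, Dnd1 in 10 and Nanos3 in 4, so the caller took cells that held both Dppa3 and Dnd1. In Dnmt1 KO, Dazl was found in 9 of the 15 gated cells with at least 5 Dppa3 UMIs and in 10 of the 16 outside the gate. Dnmt3a KO had 5 such gated cells and Dnmt3b KO had 2, with Dazl in 1 of each. The doublet caller removed 6 cells with at least 5 Dppa3 UMIs in Dnmt3a KO and 8 in Dnmt3b KO, all with Dnd1, and 2 in Dnmt1 KO. The counts of kept cells therefore depend on that step, and not equally in each genotype.

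**Figure D1:**
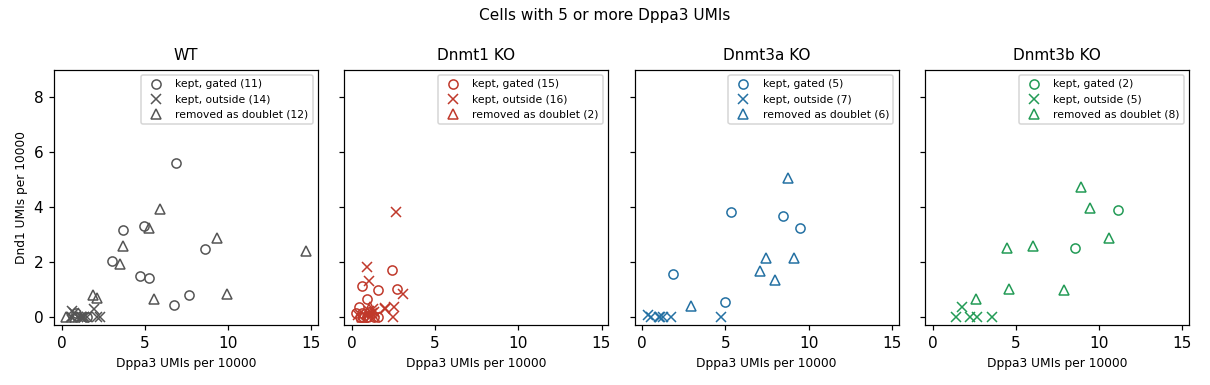
Cells with at least 5 Dppa3 UMIs, 1 panel per genotype. Both axes give UMIs per 10000 of the cell, Dppa3 on x and Dnd1 on y, with circles for gated cells, crosses for cells outside the gate and triangles for cells removed as doublets. The cells rich in both genes in WT are gated or were removed as doublets, and the WT crosses lie low on the Dnd1 axis.

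The gate held 3.40 ± 1.57% (SD, n = 3) of cells in Dnmt1 KO embryos, 0.954 ± 1.21% (n = 7) of WT, 0.112 ± 0.106% (n = 4) of Dnmt3a KO and 0.196 ± 0.173% (n = 3) of Dnmt3b KO. By exact two-sided permutation tests the difference from WT had p = 0.0333 in Dnmt1 KO (adjusted over the 3 genotypes 0.1), p = 0.133 in Dnmt3a KO (adjusted 0.200) and p = 0.283 in Dnmt3b KO (adjusted 0.283), so none held after adjustment. Single embryos moved these means: without WT 7 the WT mean was 0.536% (Dnmt1 KO exact permutation p = 0.0238, adjusted 0.0714), and without Dnmt3b KO 12 the Dnmt3b KO mean was 0.1001%. The doublet caller had removed a further 9 gated cells in Dnmt1 KO, 8 in Dnmt3a KO, 24 in Dnmt3b KO and 39 in WT. Gated cells were deep, and when each cell was thinned to 10000 UMIs only 19 of 4956 cells in Dnmt1 KO and 18 of 24441 in WT met the gate. The thinned shares averaged 0.439% in Dnmt1 KO, 0.0116% in Dnmt3a KO, 0.00457% in Dnmt3b KO and 0.0848% in WT, with adjusted p of 0.25, 0.318 and 0.333 by the same exact permutation test.

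Outside the gate all of the genes but Nanos3 were higher in Dnmt1 KO and Dnmt3b KO than in WT, with the largest fold change for Dazl. In Dnmt1 KO 6 of the 7 genes were called higher (edgeR quasi-likelihood test, Benjamini-Hochberg adjusted p under 1%, log2 fold change of at least 1), against 8.21% of all genes called higher. In Dnmt3b KO the same 6 were called, against 1.75% of all genes, and in Dnmt3a KO 1 was, against 0.209%. With libraries 1 and 2 as the 1 Dnmt3b KO sample, assumed to vary like the other groups, 2 of the 7 were called there, Dazl and Dnd1, against 0.434% of all genes in that fit. With a covariate for Y-linked genes 6 were called in Dnmt1 KO (against 6.42% of all genes), 5 in Dnmt3b KO (2.47%) and 1 in Dnmt3a KO (0.311%). The median log2 fold change of the 7 genes was 3.27 in Dnmt1 KO, 2.03 in Dnmt3b KO and 1.05 in Dnmt3a KO, beside medians of 0.01, -0.01 and 0.00 over all genes. The 3 comparisons share the WT embryos. In sums over an embryo, fewer cells of a type and less RNA per cell cannot be told apart, and the cell classes are taken up below.

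**Figure D2:**
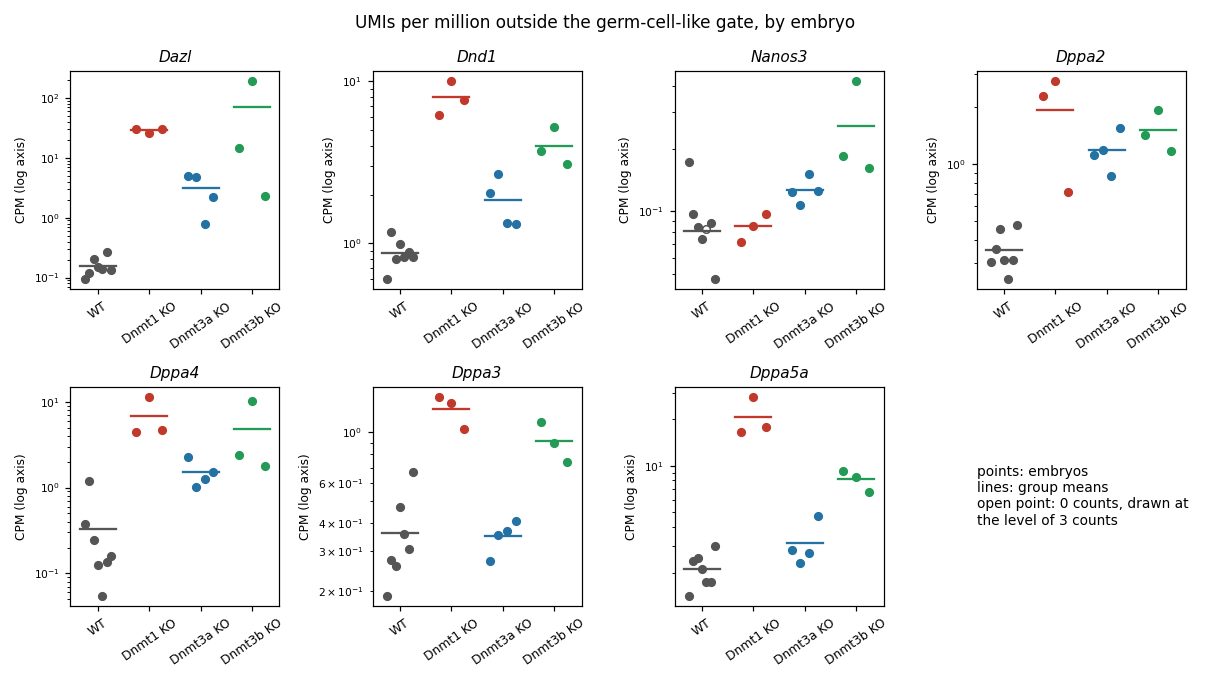
Level of each gene outside the gate, in CPM on a log axis, with 1 point per embryo (Dnmt3b KO 1 and 2 as 1 point), lines at group means and open points for 0 UMIs drawn at the level of 3 UMIs. All Dnmt1 KO and Dnmt3b KO points lie above every WT point for each gene but Nanos3. Of all genes tested, 10.8% in Dnmt1 KO and 5.57% in Dnmt3b KO had every sample above WT.

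Dazl was close to absent outside the gate in WT, at 0.0932, 0.137 and 0.268 CPM (lowest, median and highest of 7 embryos). In Dnmt1 KO 1, 2 and 3 it was 30.2, 26.3 and 31.0 CPM, a log2 fold change of 7.55 ± 0.87 (SE; edgeR, adjusted p = 4.48e-06). In the Dnmt3b KO samples it was 2.29 CPM (1 and 2 summed), 14.6 (11) and 195 (12), a log2 fold change of 8.70 ± 0.90 (edgeR, adjusted p = 7.54e-06). The Dnmt1 KO embryos were thus near one another, while the Dnmt3b KO samples spread widely, with 2 of them below every Dnmt1 KO embryo and 1 above. The order of the 3 samples for Dazl (2.29, 14.6 and 195 CPM) was the reverse of that for Dnmt3a (31.99, 15.1 and 7.56 CPM), and whether the 2 are linked was not tested. Without Dnmt3b KO 12 the change was 5.74 and remained called, as it did with libraries 1 and 2 as the 1 Dnmt3b KO sample (3.74 ± 0.51, adjusted p = 0.000885), where the error comes from the spread in the other groups alone. In Dnmt3a KO 1, 2, 13 and 14 Dazl was 0.783, 2.20, 4.91 and 4.82 CPM, above every WT embryo in 4 of 4, with a log2 fold change of 4.26 ± 0.80 that missed the threshold (edgeR, adjusted p = 0.0172) and passed it without Dnmt3b KO 12 (adjusted p = 0.000174). The share of all genes with every sample above WT was 10.8% in Dnmt1 KO, 5.57% in Dnmt3b KO and 2.04% in Dnmt3a KO.

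Dazl was found in many cells. After each cell was thinned to 10000 UMIs, Dazl was found in 17.7 ± 0.216% of Dnmt1 KO cells outside the gate (SD, n = 3), 2.08 ± 1.14% of Dnmt3a KO (n = 4), 20.4 ± 26.6% of Dnmt3b KO (n = 3) and 0.130 ± 0.0769% of WT cells (n = 7). The Dnmt3b KO samples stood at 1.71% (1 and 2), 8.54% (11) and 50.8% (12), a mean of 5.13% without 12. Without thinning the shares were 32.1, 3.93, 25.6 and 0.587%. Free RNA in a library follows its own Dazl level, so the WT share is no background for null cells. Within Dnmt1 KO 1, 2 and 3 the share was 3.77, 3.87 and 3.92% in ExE endoderm and 36.2, 40.4 and 28.0% in ExE mesoderm, and no class known to lack Dazl was at hand. Dnmt3b KO 12 alone had 1038 cells with at least 10 Dazl UMIs, with a maximum of 103 in a cell.

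Dnd1, needed for germ cells to survive, was 0.599, 0.824 and 1.17 CPM (lowest, median, highest) in WT. It was 6.22, 10.1 and 7.66 CPM in Dnmt1 KO 1, 2 and 3 (log2 fold change 3.27 ± 0.22, edgeR adjusted p = 1.14e-08). In Dnmt3b KO it was 3.09 (1 and 2), 3.71 (11) and 5.18 CPM (12), a log2 fold change of 2.16 ± 0.22 (edgeR adjusted p = 6.91e-06). The groups did not overlap WT in either case, beside 10.8% of all genes wholly above WT in Dnmt1 KO and 5.57% in Dnmt3b KO. Dnmt3a KO 1, 2, 13 and 14 stood at 1.34, 1.32, 2.06 and 2.69 CPM. All were above every WT embryo, as for 2.04% of all genes. The log2 fold change of 1.05 ± 0.21 was not called (edgeR adjusted p = 0.0247). Without WT 2 it was called (adjusted p = 0.00915). The gene Wdr55 overlaps Dnd1 on the opposite strand and was called in no comparison, with a log2 fold change of -0.16 in Dnmt1 KO.

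Nanos3 stayed near its floor. It was 0, 0.0841 and 0.173 CPM in WT (lowest, median, highest), and 0.0711, 0.0856 and 0.0975 CPM in Dnmt1 KO, inside the WT range (log2 fold change -0.02, edgeR adjusted p = 0.976). Dnmt3a KO embryos held 0.107 to 0.152 CPM (0.48, adjusted p = 0.765). In Dnmt3b KO it was 0.161, 0.185 and 0.422 CPM, with 2 of 3 samples above every WT embryo and a log2 fold change of 1.44 ± 0.42 (edgeR adjusted p = 0.0655). The unadjusted edgeR p there was 0.00283. From libraries 1 and 2 alone the change was 0.75 and not called (adjusted p = 1).

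Dppa4 had a larger fold change than its partner Dppa2 in Dnmt1 KO and in Dnmt3b KO. Dppa4 was 0.0549, 0.160 and 1.20 CPM in WT (lowest, median, highest), 4.44, 11.4 and 4.72 in Dnmt1 KO 1, 2 and 3, and 1.79 (1 and 2), 2.38 (11) and 10.1 (12) in Dnmt3b KO. The log2 fold changes were 4.35 ± 0.66 in Dnmt1 KO (edgeR adjusted p = 7.85e-05) and 3.70 ± 0.66 in Dnmt3b KO (0.00227), and the latter was lost without Dnmt3b KO 12 (2.55, adjusted p = 0.0720) and with libraries 1 and 2 alone (2.26, adjusted p = 0.637). In Dnmt3a KO 1, 2, 13 and 14 it was 1.25, 1.51, 2.30 and 1.01 CPM, 3 of 4 above every WT embryo, and not called (2.11 ± 0.62, edgeR adjusted p = 0.201). WT 2, the highest WT embryo, was the single WT embryo with a sizeable ExE ectoderm class, and without it Dppa4 was called in Dnmt3a KO (2.94, adjusted p = 0.00772).

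Dppa2 was 0.247, 0.315 and 0.479 CPM in WT. It was 2.31, 2.76 and 0.711 CPM in Dnmt1 KO 1, 2 and 3 (log2 fold change 2.49 ± 0.30, edgeR adjusted p = 7.31e-06) and 1.17 (1 and 2), 1.44 (11) and 1.93 CPM (12) in Dnmt3b KO (2.03 ± 0.30, adjusted p = 0.000344). Dnmt3a KO 1, 2, 13 and 14 held 0.866, 1.56, 1.12 and 1.19 CPM, and Dppa2 was the 1 gene of the 7 called there (1.70 ± 0.28, edgeR adjusted p = 0.00636). Every null sample was above every WT embryo. Of all genes, 10.8% in Dnmt1 KO, 5.57% in Dnmt3b KO and 2.04% in Dnmt3a KO had every sample above WT. These sums also depend on the size of the ExE endoderm class, taken up below. The Dnmt3a KO call was near the threshold and was lost when any 1 of Dnmt1 KO 1, Dnmt3a KO 2, 13 or 14, Dnmt3b KO 11, or WT 1, 3, 4, 5, 6 or 7 was left out (adjusted p 0.0101 to 0.0359). In Dnmt3b KO it was 1.62 with libraries 1 and 2 as the 1 sample (adjusted p = 0.171).

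Dppa5a rose in every Dnmt1 KO and Dnmt3b KO sample. It was 1.42, 2.10 and 2.98 CPM in WT (lowest, median, highest), 16.5, 28.1 and 17.9 in Dnmt1 KO 1, 2 and 3 (log2 fold change 3.37 ± 0.24, edgeR adjusted p = 2.33e-08) and 6.74 (1 and 2), 9.23 (11) and 8.44 (12) in Dnmt3b KO (1.91 ± 0.24, adjusted p = 7.47e-05). Neither group overlapped WT, and with libraries 1 and 2 alone Dppa5a was not called in Dnmt3b KO (1.58, edgeR adjusted p = 0.0604). Dnmt3a KO embryos held 2.32 to 4.67 CPM, 1 of 4 above every WT embryo (0.55, edgeR adjusted p = 0.453). Of all genes, 10.8% in Dnmt1 KO and 5.57% in Dnmt3b KO had every sample above WT.

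Dppa3 rose least among the called genes. It was 0.191, 0.307 and 0.668 CPM in WT, 1.43, 1.35 and 1.03 in Dnmt1 KO 1, 2 and 3 (log2 fold change 1.91 ± 0.27, edgeR adjusted p = 4.09e-05) and 0.741 (1 and 2), 1.11 (11) and 0.900 (12) in Dnmt3b KO (1.35 ± 0.27, adjusted p = 0.00688). Dnmt3a KO embryos held 0.272 to 0.405 CPM, inside the WT range (-0.05, adjusted p = 0.985). In Dnmt1 KO 70.4% of the Dppa3 UMIs outside the gate came from Pou5f1-led cells, which were 9.47% of cells, and without those cells the change was 0.36 and not called (edgeR adjusted p = 0.385). The other 5 called genes remained called in Dnmt1 KO without Pou5f1-led cells. In Dnmt3b KO the Dppa3 call was lost without any 1 of Dnmt3b KO 2, 11 or 12, Dnmt1 KO 1, or WT 2, 3, 5 or 6, and in all it was lost in 17 of 35 alternatives, libraries 1 and 2 alone among them (0.98, adjusted p = 0.831).

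**Figure D3:**
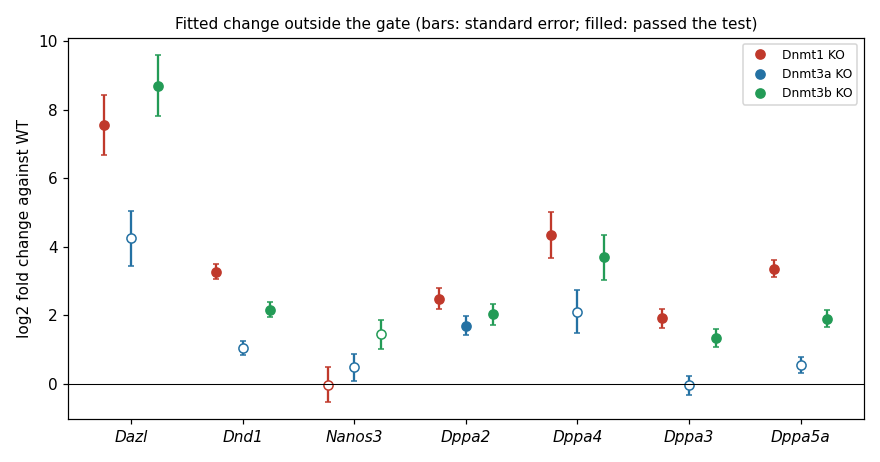
Fitted log2 fold change of each gene against WT outside the gate, with bars for the standard error and filled points for genes that passed the test. Dazl stands highest in all 3 genotypes, at 7.55, 4.26 and 8.70 in Dnmt1 KO, Dnmt3a KO and Dnmt3b KO, and Nanos3 is filled in none.

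The null genotypes were also compared with each other in the same model. Dppa5a was higher in Dnmt1 KO than in Dnmt3b KO by 1.46 ± 0.30 on the log2 scale (edgeR adjusted p = 0.00227) and Dnd1 by 1.11 ± 0.27 (adjusted p = 0.00656), where 3.86% of all genes were called higher. Dazl differed by -1.15 ± 0.90 between these groups and was not called (adjusted p = 0.344). Both calls rest on single embryos: without Dnmt1 KO 2 no gene of the 7 was called, and without Dnmt1 KO 3 or Dnmt3b KO 11 only 1 was. With libraries 1 and 2 as the 1 Dnmt3b KO sample neither was called (Dppa5a 1.78, edgeR adjusted p = 0.0253, and Dnd1 1.52, 0.0262), while Dazl was higher in Dnmt1 KO by 3.81 ± 0.80 and called (adjusted p = 0.00630), against 1.59% of all genes. Against Dnmt3a KO, where 6.85% of all genes were called higher, Dnmt1 KO was higher in Dazl (3.30 ± 0.88, edgeR adjusted p = 0.00767), a call lost when any 1 of Dnmt1 KO 1, 2 or 3, Dnmt3a KO 1, 2, 13 or 14, or WT 3, 4 or 5 was left out (adjusted p up to 0.0233). It was also higher in Dppa5a (2.81 ± 0.29, adjusted p = 3.04e-06), Dnd1 (2.22 ± 0.26, 9.77e-06) and Dppa3 (1.96 ± 0.31, 0.000178). Between Dnmt3b KO and Dnmt3a KO 0 of the 7 were called by edgeR, beside 0.204% of all genes called higher, with 5 of the 7 at an unadjusted p under 0.05 (DESeq2 was not run on this contrast), and Dazl had the smallest adjusted p (4.44 ± 0.91, 0.0326). From libraries 1 and 2 alone the Dazl difference turned to -0.52 ± 0.63 (edgeR adjusted p = 1), with 0 of the 7 called by edgeR, against 0.0204% of all genes, and 2 at an unadjusted p under 0.05.

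The next comparison asked whether the genes rose within cell classes. Classes were rebuilt by clustering without the 7 genes and named from marker lists, and between 12.3% (WT) and 14.3% (Dnmt3b KO) of the cells of a genotype stayed unnamed (means over embryos). With edgeR, within classes, 20 of the 21 gene and class pairs tested were called in Dnmt1 KO (5 classes, against 4.47% of all pairs called higher), 38 of 48 in Dnmt3b KO (14 classes, against 0.721%) and 5 of 48 in Dnmt3a KO (16 classes, against 0.0984%). All of these calls were increases. Dazl was called in 5 of 5 classes tested in Dnmt1 KO and in 12 of 12 in Dnmt3b KO, Dppa5a in 5 of 5 and 10 of 14, Dnd1 in 4 of 5 and 10 of 14, and Dppa4 in 4 of 4 and 5 of 5. A gene was tested only in classes where its counts passed the filter, among 5 classes fitted in Dnmt1 KO and 14 in Dnmt3b KO. Null samples can bring a gene that is low in WT past that filter. For Dazl and Dppa4 a call in every class tested was therefore partly set by the filter. In Dnmt1 KO the largest cluster of a class was that of WT in gut and endothelium and another one in ExE mesoderm, ExE endoderm and presomitic mesoderm, where all 219 Dnmt1 KO cells clustered were in cluster 36 and all 311 of WT in cluster 25, so those pairs compare different clusters under 1 name. Without Dnmt3b KO 12, 29 of 51 pairs were called in Dnmt3b KO (against 0.462% of all pairs), Dazl in 12 of 13, Dppa5a in 8 of 14, Dnd1 in 5 of 14 and Dppa4 in 3 of 5. With libraries 1 and 2 as the 1 Dnmt3b KO sample, 10 of 52 were called (against 0.231% of all pairs), 4 of them Dazl. Classes come from the same embryos and are not independent. With all samples, Nanos3 passed the count filter in no class, and Dppa3 in surface ectoderm alone.

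**Figure D4:**
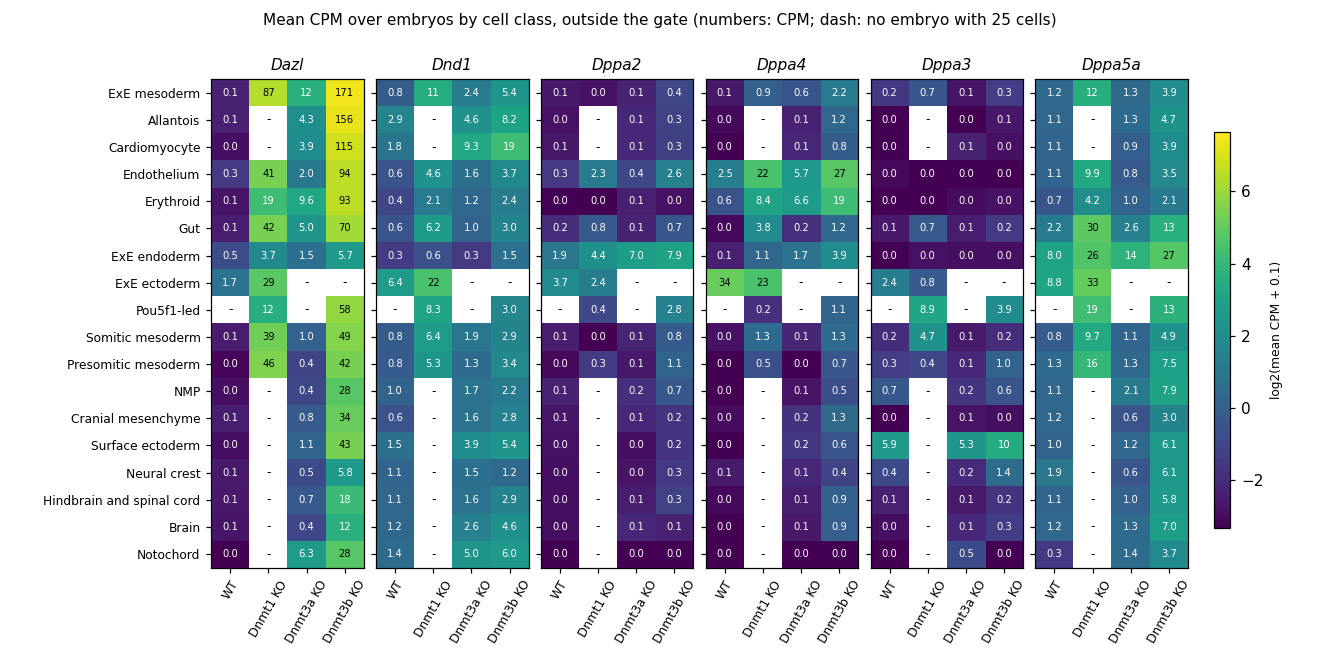
Mean CPM over embryos of 6 genes by cell class and genotype, outside the gate, with the CPM printed in each cell, colour for log2(mean CPM + 0.1) and a dash where no embryo had enough cells. Dazl is high in ExE mesoderm of Dnmt1 KO and Dnmt3b KO (means 86.8 and 171 CPM). Dppa3 is in surface ectoderm of WT, Dnmt3a KO and Dnmt3b KO, while Dnmt1 KO had too few cells of that class and shows a dash. Dppa2, with most of its UMIs from ExE endoderm, is also present in ExE ectoderm of WT and Dnmt1 KO.

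In extraembryonic (ExE) mesoderm, the class with the highest mean Dazl CPM in Dnmt1 KO and in Dnmt3b KO, Dazl was 0.114 ± 0.0828 CPM in WT (SD, n = 7), 99.7, 103 and 57.3 CPM in Dnmt1 KO 1, 2 and 3 (log2 fold change 9.31 ± 1.25, edgeR adjusted p = 1.33e-05), 1.49, 6.96, 18.9 and 22.7 in Dnmt3a KO 1, 2, 13 and 14 (not called, adjusted p = 0.0536), and 6.64 (1 and 2), 29.955 (11) and 477 (12) in Dnmt3b KO (10.15 ± 1.21, adjusted p = 2.32e-05, and 7.01 ± 0.88 without 12, adjusted p = 5.62e-05, or 5.42 ± 1.00 from libraries 1 and 2 alone, 0.00975). The fitted fold change in Dnmt3b KO was 10.73 ± 1.47 in erythroid cells and 10.51 ± 1.43 in cardiomyocytes. Without 12 these were 7.07 and 7.92 (edgeR adjusted p = 0.00256 and 0.00201), and from libraries 1 and 2 alone 5.49 and 3.98, with neither called (adjusted p = 0.148 and 0.999957). The largest cluster of the class was 19 in Dnmt1 KO, with 85.0% of its cells, and 26 in WT, with 32.6%. In ExE endoderm, the yolk sac epithelium, Dazl reached only 4.13, 3.84 and 3.11 CPM in Dnmt1 KO (2.85 ± 0.61, adjusted p = 0.00210, clusters 13 and 3) and 0.859, 1.45 and 14.9 CPM in Dnmt3b KO, from 0.511 ± 0.251 in WT, and it was not called there without Dnmt3b KO 12 (1.12, adjusted p = 0.168). In Dnmt3b KO 12, Dazl was found in 76.2% of thinned ExE mesoderm cells and 79.2% of allantois cells, but in 11.8% of ExE endoderm and 25.6% of brain cells. Endothelium held 41.4 ± 10.3 CPM in Dnmt1 KO against 0.262 ± 0.266 in WT, with cluster 15 the largest of the class in both (53.4% and 48.3%).

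**Figure D5:**
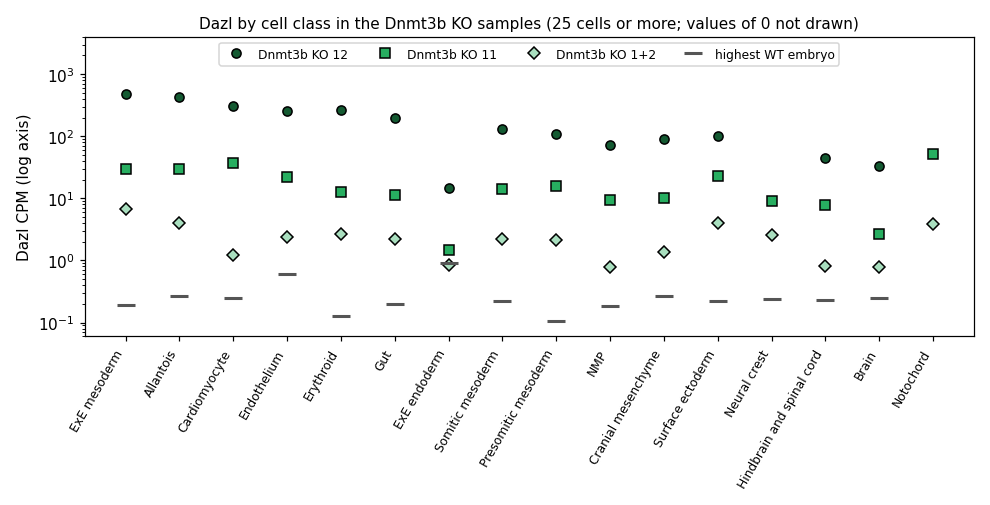
Dazl level by cell class in the Dnmt3b KO samples, in CPM on a log axis, with circles for 12, squares for 11, diamonds for 1 and 2 summed and a bar for the highest WT embryo, for classes with at least 25 cells. The order of the samples is the same in ExE mesoderm (477, 29.955 and 6.64 CPM) and in ExE endoderm (14.9, 1.45 and 0.859 CPM).

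Dppa2 came largely from ExE endoderm in sums over a genotype. That class supplied 78.0% of its UMIs outside the gate in WT, 88.5% in Dnmt3a KO, 72.8% in Dnmt3b KO and 71.9% in Dnmt1 KO. By sample its part was lowest in Dnmt1 KO 3 (37.3% of 51 UMIs), WT 2 (44.1% of 59) and Dnmt3b KO 12 (48.3% of 315), and ran from 69.3 to 100% in the others. Within that class it was 1.94 ± 0.320 CPM in WT (SD, n = 7), 4.64, 6.06 and 2.57 CPM in Dnmt1 KO (log2 fold change 1.30 ± 0.23, edgeR adjusted p = 0.000408), 5.00, 6.12, 10.1 and 6.96 in Dnmt3a KO 1, 2, 13 and 14 (1.86 ± 0.20, adjusted p = 3.96e-05) and 7.57, 7.82 and 8.31 in Dnmt3b KO (2.001 ± 0.22, adjusted p = 1.32e-05). The lowest null embryo, Dnmt1 KO 3, lay next to the highest WT embryo at 2.51 CPM. From libraries 1 and 2 alone the Dnmt3b KO change was 1.91 (adjusted p = 0.00790). Most cells of the class were in cluster 3 in WT and Dnmt3b KO, 13 in Dnmt1 KO and 1 in Dnmt3a KO. Dppa5a was also high there, at 8.02 ± 3.62 CPM in WT, 25.6 ± 4.59 in Dnmt1 KO and 26.6 ± 5.59 in Dnmt3b KO, and 13.6 ± 4.76 in Dnmt3a KO, where it was not called. From libraries 1 and 2 alone the Dppa5a call in Dnmt3b KO was lost (1.70, edgeR adjusted p = 0.0671).

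Dppa4 was called in all 4 classes tested in Dnmt1 KO, of 5 fitted, and all 5 tested in Dnmt3b KO, of 14 fitted. Classes were tested only where Dppa4 passed the count filter, which null samples can bring about. From libraries 1 and 2 alone the change was smaller in each of these classes, from 1.87 in endothelium to 3.24 in erythroid cells and 4.52 in ExE endoderm. In gut, where the 7 WT embryos held 1 UMI in all, it was 3.78 ± 0.904 CPM in Dnmt1 KO and 1.24 ± 1.61 in Dnmt3b KO. The log2 fold changes in Dnmt1 KO and Dnmt3b KO were 3.74 ± 0.92 and 4.95 ± 0.79 in ExE mesoderm and 3.71 ± 0.58 and 5.28 ± 0.55 in ExE endoderm. Without Dnmt3b KO 12 the Dnmt3b KO calls in gut (adjusted p = 0.202) and ExE mesoderm (0.0169) were lost, as they were from libraries 1 and 2 alone (adjusted p = 1 and 0.588). In endothelium it was 2.48 ± 1.69 CPM in WT, 20.8, 25.1 and 20.7 in Dnmt1 KO (log2 fold change 3.14 ± 0.48, edgeR adjusted p = 6.43e-05) and 10.6, 12.5 and 58.7 in Dnmt3b KO (3.28 ± 0.46, adjusted p = 0.000158, clusters 14 and 15, and 2.09 without 12, adjusted p = 0.00323, or 1.87 from libraries 1 and 2 alone, 0.136). In erythroid cells it was 0.595 ± 0.279 in WT, 4.90, 4.56, 8.40 and 8.51 in Dnmt3a KO 1, 2, 13 and 14 (3.19 ± 0.46, adjusted p = 0.00678), and 7.06, 10.1 and 38.7 in Dnmt3b KO (4.70 ± 0.47, adjusted p = 4.01e-05, and 3.56 without 12, adjusted p = 5.20e-05). It was also called in Dnmt3a KO in ExE endoderm (4.08 ± 0.54, adjusted p = 0.000362). In ExE ectoderm, the trophoblast, it was 34.4 CPM in the 124 cells of WT 2 and 23.5 ± 2.07 CPM (SD, n = 3) in Dnmt1 KO, so this class held Dppa4 in either genotype, with no test. ExE ectoderm was 5.60, 31.1 and 4.63% of the cells of Dnmt1 KO 1, 2 and 3 (mean 13.8%, or 5.11% without Dnmt1 KO 2) against 0.256% of WT cells (0.00865% without WT 2), and supplied 35.5, 74.1 and 45.1% of their Dppa4 UMIs outside the gate. Without ExE ectoderm cells Dppa4 was still called in Dnmt1 KO (3.83, adjusted p = 3.48e-05). The summed level of the 10 ExE ectoderm marker genes was 390 ± 202 CPM in Dnmt1 KO and 171 ± 14.9 in WT.

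Dnd1 stood out in cardiomyocytes, where it was 1.76 ± 0.833 CPM in WT, 6.28, 7.39, 10.4 and 13.2 in Dnmt3a KO 1, 2, 13 and 14 (log2 fold change 2.30 ± 0.30, edgeR adjusted p = 0.00174) and 15.6, 23.2 and 16.96 in Dnmt3b KO (3.30 ± 0.28, adjusted p = 6.16e-07, and 3.01 from libraries 1 and 2 alone, 0.000306). It was called in Dnmt3a KO in surface ectoderm too (1.37 ± 0.20, adjusted p = 0.00256), where WT had 1.499 ± 0.331 and Dnmt3a KO 3.94 ± 0.894 CPM. In Dnmt1 KO it was the 1 gene not called in a class tested, in ExE endoderm (1.15, adjusted p = 0.0407).

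Dppa3 outside the gate came mainly from surface ectoderm in every genotype but Dnmt1 KO: 65.9% of its UMIs in WT, from 3.93% of the cells, 80.6% in Dnmt3a KO and 71.0% in Dnmt3b KO. In that class Dppa3 was at 5.93 ± 3.52 CPM in WT, 5.35 ± 1.77 in Dnmt3a KO and 10.5 ± 2.47 in Dnmt3b KO (log2 fold change 0.90 ± 0.33, edgeR adjusted p = 0.215, not called). Dnmt1 KO embryos held only 4 surface ectoderm cells, and 12.5% of their cells were Pou5f1-led against 0.0704% in WT (0.0377% without WT 7), so for Dppa3 the genotype and the cell makeup cannot be told apart there.

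Genes that work with these regulators or with the same cells were read from lists chosen with earlier results of these data known, beside 8.21% of all genes called higher in Dnmt1 KO, 1.75% in Dnmt3b KO and 0.209% in Dnmt3a KO. Of 18 tested partners of the RNA-binding members, 0 were called in any genotype by edgeR or DESeq2, with 7 in Dnmt1 KO, 3 in Dnmt3b KO and 0 in Dnmt3a KO at an unadjusted edgeR p under 0.05. Of 6 genes around the DPPA3 target UHRF1 and of demethylation (Uhrf1, Uhrf2, Tet1, Tet2, Tet3 and Tdg) 0 were called by either tool, with 2, 3 and 1 at an unadjusted p under 0.05 in the same order of genotypes. Of 18 listed genes of the zygotic programme that DPPA2 and DPPA4 activate, 4 passed the count filter. Null samples can bring genes that are low in WT past it, so calls among the 4 were partly set by the filter. Usp17la was higher in Dnmt1 KO (log2 fold change 6.30 ± 1.73) and in Dnmt3b KO (8.39 ± 1.498), and Usp17lc in Dnmt3b KO (6.54 ± 1.27). From libraries 1 and 2 alone these were 0.75 and -0.53 in Dnmt3b KO, with neither called, and without Dnmt1 KO 2 Usp17la was not called in Dnmt1 KO (adjusted p = 0.0182). Both belong to a family of near-identical copies, among which reads may have been split, and DESeq2 called 1 of the 4 in Dnmt3b KO. Of 17 pluripotency and early germ cell genes, 6 were higher in Dnmt1 KO, led by Utf1 (4.33 ± 0.48), Zfp42 (3.44 ± 0.39) and Esrrb (2.48 ± 0.36), and 2 were lower, Sox2 (-1.76 ± 0.24) and Tdgf1 (-1.67 ± 0.45). Without Dnmt1 KO 2, 4 were higher and 1 lower. In Dnmt3b KO 1 of the 17 was higher, Ifitm3 (1.05 ± 0.21), and in Dnmt3a KO 0 were by edgeR or DESeq2 (2 at an unadjusted p under 0.05). Of 18 listed oocyte genes 9 passed the count filter, with the same limit. Among them Nlrp5 (4.06 ± 0.64), Zp1 (2.22 ± 0.24) and Zp3 (1.98 ± 0.52) were higher in Dnmt1 KO and Zp3 in Dnmt3b KO (2.32 ± 0.47), where DESeq2 called 3. Ifitm3 (0.60) and Zp3 (1.60) were not called in Dnmt3b KO from libraries 1 and 2 alone, and without Dnmt1 KO 2 Zp3 was not called in Dnmt1 KO (adjusted p = 0.0120). Of the 4 gate genes tested, Nanog (2.02 ± 0.50) and Tfap2c (3.31 ± 0.41) were higher outside the gate in Dnmt1 KO. Tfap2c was 10.7, 72.5 and 13.3 CPM in Dnmt1 KO 1, 2 and 3, against 3.44 ± 1.10 in WT (SD, n = 7), and 1.86 ± 0.24 on the log2 scale without Dnmt1 KO 2. The ExE ectoderm and Pou5f1-led classes were larger in Dnmt1 KO too (13.8 and 12.5% of cells, against 0.256 and 0.0704% in WT), and surface ectoderm smaller. The WT mean was 0.00865% for ExE ectoderm without WT 2 and 0.0377% for Pou5f1-led without WT 7. Without the cells of these 3 classes neither gate gene was called (Nanog -0.04, Tfap2c -1.10), nor Esrrb (-0.64), and 4 of the 17 pluripotency genes were higher, Utf1 (1.10) and Zfp42 (2.13) among them, and 1 lower, Sox2. The median of each list, beside the 0.01, 0.00 and -0.01 of all genes, was 0.03, -0.03 and -0.06 for the RNA partners and 0.40, -0.14 and -0.19 for the pluripotency list in Dnmt1 KO, Dnmt3a KO and Dnmt3b KO.

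Around the members, 52 of the 128 genes annotated within 200 kb were tested, counting a gene once for each member it neighbours. Of the 52, 6 were called higher in Dnmt1 KO, beside 8.21% of all genes, and 3 in Dnmt3b KO, beside 1.75%. Next to Dppa2 and Dppa4, Morc1, a germline gene, was higher in Dnmt1 KO (2.99 ± 0.49) and Dnmt3b KO (2.67 ± 0.48). Near Dppa3, Gdf3 (3.82 ± 0.52) and Nanog were higher in Dnmt1 KO, and Mfap5 in Dnmt1 KO (2.77 ± 0.27) and Dnmt3b KO (2.07 ± 0.26). Morc1 (1.33) and Mfap5 (1.33) were not called in Dnmt3b KO from libraries 1 and 2 alone. The remaining calls were in Dnmt1 KO: Ddx43 near Dppa5a was higher (1.17 ± 0.29), and Rftn1 near Dazl (-1.20 ± 0.31), Cgas near Dppa5a (-1.51 ± 0.40) and Samd1 near Nanos3 (-1.78 ± 0.30) were lower. Of the Dnmt1 KO calls, those of Ddx43, Rftn1 and Cgas were lost without Dnmt1 KO 2, and those of Gdf3, Nanog, Rftn1 and Cgas without Pou5f1-led, surface ectoderm and ExE ectoderm cells. Of the 12 neighbours of Dnd1, 0 were called by edgeR or DESeq2, with 4 at an unadjusted p under 0.05 in Dnmt1 KO. In Dnmt3a KO 0 of the 52 were called by edgeR and 1 by DESeq2, with 6 at an unadjusted p under 0.05.

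Across the 17 samples, the genes whose log2(CPM + 0.5) followed each member most closely were Sohlh2 (Pearson r = 0.98) and Sult6b1 (0.97) for Dazl, Piwil2 and Terb2 (0.97 each) for Dnd1, Rec114 and Tex19.1 (0.97 each) for Dppa4, Pgc and Stk31 (0.94 each) for Dppa2, Sycp3 (0.94) and Dppa5a (0.93) for Dppa3, Gc and Sycp3 (0.97 each) for Dppa5a, and Gsg1 (0.93) and Hrct1 (0.90) for Nanos3. The points share genotype, libraries and depth, so these values describe the samples. Between members, Dazl correlated at 0.92 with Dppa4 and 0.91 with Dnd1 but at 0.56 with Nanos3.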

How the data were processed

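Whole E8.5 embryos were profiled as single cells in 18 libraries with the groups as labelled. The deposited values were raw UMI counts per gene and barcode, which the authors made with Cell Ranger 3.1.0 (17 libraries) or 5.0.0 on mm10. In 4 libraries (WT 1, Dnmt3a KO 1 and 13, Dnmt3b KO 11) the reference also held a second genome, whose genes were not used here, and 14 had a mouse reference alone. Coordinates follow the GENCODE annotation of mm10.

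From these counts, barcodes were kept with at least 1500 mouse UMIs, at most 30% mitochondrial and at most 35% ribosomal protein UMIs (117886 of 128881 with 1500 UMIs), and 7924 doublets called by Scrublet (as in scanpy 1.11.5) at an assumed 0.8% per 1000 cells were removed. Cell classes were rebuilt with Leiden clustering (leidenalg 0.10.2, resolution 2) on 2500 variable genes that left out the 7 genes described, 50 components and 30 neighbours, with 1500 cells per library as the reference, and 34 of 43 clusters were named from marker lists, giving 17 classes. These names may differ from those of the study. Counts were summed per embryo over cells outside the gate and tested with edgeR 4.0.16 (R 4.3.3, TMM scaling, filterByExpr, quasi-likelihood) in 1 model of all 4 groups, with Dnmt3b KO 1 and 2 as 1 sample. A gene was called at a Benjamini-Hochberg adjusted p under 0.01 over all genes tested and an absolute log2 fold change of at least 1. Class tests used classes with at least 25 cells in at least 3 samples of the null group and of WT. Tested on simulated data of 18386 to 18424 genes with 200 genes changed 4-fold, the fit found 94% in Dnmt1 KO and in Dnmt3b KO, and 97.5% in Dnmt3a KO, with 0, 0 and 4 false calls.

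The genes and all lists were chosen with earlier results of these data known. Named genes were the 7 genes, the gate genes, the 3 targeted genes, up to 4 called genes with the largest change from each list and genotype, called genes within 200 kb of one of the 7, and the 2 genes with the highest correlation to each. Alternatives were DESeq2 1.42.0, RLE scaling, no count filter, other gates and cell filters, covariates for Y-linked genes or the reference, thinned counts, a replicate block, and leaving out libraries or classes. Replicate numbers were shared between groups, but the labels give no shared litter or day, and correlations of same-numbered deviations ranged from -0.467 to 0.536, so the numbers were not taken to pair embryos. The level that 0 UMIs allows was taken as 3 UMIs of the total, which covers counting error only.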

Additional observations from a re-analysis of the deposited data

Results flagged for a closer look

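Differences between the null genotypes stood out for 4 genes. Against Dnmt3a KO, the change in Dnmt1 KO was larger by 3.30 for Dazl, 2.81 for Dppa5a, 2.22 for Dnd1 and 1.96 for Dppa3 on the log2 scale, and against Dnmt3b KO it was larger by 1.46 for Dppa5a and 1.11 for Dnd1, each past the threshold in the edgeR contrast of the groups themselves. Of all genes, 6.85% were called higher against Dnmt3a KO and 3.86% against Dnmt3b KO. Neither call against Dnmt3b KO held without Dnmt1 KO 2. The Dazl call against Dnmt3a KO was lost when any 1 of several libraries was left out, as given above. In 2 of the 16 groups of 4 to 10 samples tested for a sample far from the others (Dixon's test at the 95% level, which chance passes in about 1 of 20 groups), a sample stood apart. These groups were all WT or Dnmt3a KO. Dnmt1 KO and Dnmt3b KO, with 3 samples each, were too small to be screened. Dppa4 outside the gate was 1.20 CPM in WT 2, above the other 6 WT embryos, and 102 of its UMIs there came from 124 ExE ectoderm cells. The share of gated cells was 3.46% in WT 7, also above the other 6.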

How the results depend on the processing

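Over 1006 repeats of the results under other settings, 902 kept direction and side of the threshold. The Dnmt1 KO count of called genes was 5 or 6 under every setting. The Dnmt3a KO count, 1 as reported, was 3 with DESeq2, 2 with no count filter or without Dnmt3b KO 11 and 12, and 0 with the reference covariate, with counts thinned to the smallest sample, without ExE ectoderm cells, and without Pou5f1-led, surface ectoderm and ExE ectoderm cells. Leaving out 1 library gave 0 to 3. The share of all genes called under each of these settings is not given, so these counts do not show a change particular to the 7 genes. The Dnmt3b KO count of 6 fell to 2 without Dnmt3b KO 11 and 12, and its 38 called gene and class pairs to 10. Dppa3 and Dnd1 were each higher inside the gate in the 5 WT embryos compared, and with the wide gate only Dppa3 was higher in all 7. Between Dnmt1 KO and Dnmt3b KO, where 2 genes were called, it was 0 to 2 when 1 library was left out and 1 without Dnmt3b KO 11 and 12. The cause was not tested in any of these.

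With a replicate block, Dnmt3b KO 1 and 2 counted separately, 0 genes were called in Dnmt3a KO and 0 in Dnmt3b KO, where Dazl changed by 4.004 (adjusted p = 0.0115), while 5 were called in Dnmt1 KO (edgeR). The numbers do not mark shared litters or days.

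Some values changed sign, all of them uncalled. On the log2 scale, Dppa3 in Dnmt3a KO was 0.37 with the wide gate, 0.0053 with the reference covariate, 0.59 with the block and -0.15 to 0.18 with 1 library left out. Nanos3 in Dnmt1 KO was 0.030 over all barcodes, 0.00022 with the narrow gate (3 of the 4 genes), 0.59 with the Y-linked covariate, 0.10 with the reference covariate and -0.14 to 0.30 with 1 library left out. Inside against outside the gate in WT, Dppa2 was -0.44 (narrow gate), -0.15 (wide gate) and -0.13 (doublets kept), against 0.04 with the gate as used, and Dppa5a, at -0.78 (1.24 against 2.34 CPM), turned to 0.53 (narrow gate) and 1.16 (doublets kept). At its few UMIs, Nanos3 was not testable after thinning.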
